A study of Arabidopsis thaliana with 14 samples.

Results

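CG-only windows are stretches of 300 nt in which CG dinucleotides were heavily methylated in the embryos of 3 Arabidopsis strains, Col, Ler and Cvi, while cytosines in the CHG and CHH contexts (H is any base but G) were nearly free of methylation. They were chosen on Chr1 to Chr5 from windows that held at least 15 CG calls, 15 CHG calls and 50 CHH calls in each of the 3 selfed embryos, a call being 1 read over 1 cytosine. A window was kept where CG methylation was 60% or more, CHG methylation under 10% and CHH methylation under 3% in each strain. Of 113274 windows with the call minimums, 1187 were kept (1.05%), among 584983 nuclear windows with a CG call in any library of the series. The libraries were made by bisulfite sequencing of DNA from seeds dissected 6 days after pollination. There were 7 crosses, written with the female parent first: the reciprocal hybrids of Col with Cvi and of Ler with Cvi, and each strain selfed. Plants were grown in a greenhouse. Each cross gave 1 endosperm library and 1 embryo library, so the 14 libraries had no replicates, and each test below compares 2 libraries and not 2 strains or tissues.

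The methyltransferase MET1 copies CG methylation onto newly made DNA strands, whereas CHG and CHH methylation in plants depends on chromomethylases and on small RNAs and marks mainly transposons. Methylation confined to CG is known from the bodies of many expressed genes and is usually called gene body methylation. The histone demethylase IBM1 is known to keep CHG methylation out of such genes. In the seed, the endosperm inherits more maternal than paternal genomes, and the demethylase DME removes methylation in the central cell from which the endosperm derives.

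The letters behind these windows are shown first for the genes that held most of them. GSL10 (AT3G07160, a callose synthase), TPR3 (AT5G27030, a co-repressor of the TOPLESS family) and AT5G27970 (an ARM repeat protein) held 5 CG-only windows each. For each gene the window with most CG calls over the selfed embryos is printed, on the forward strand of TAIR10.1 with CG dinucleotides in capitals.
GSL10: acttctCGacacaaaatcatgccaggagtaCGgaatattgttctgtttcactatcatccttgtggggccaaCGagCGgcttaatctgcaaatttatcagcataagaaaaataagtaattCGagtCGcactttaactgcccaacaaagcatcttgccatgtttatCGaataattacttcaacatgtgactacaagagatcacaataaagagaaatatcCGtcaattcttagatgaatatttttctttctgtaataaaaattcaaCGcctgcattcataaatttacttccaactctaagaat
TPR3: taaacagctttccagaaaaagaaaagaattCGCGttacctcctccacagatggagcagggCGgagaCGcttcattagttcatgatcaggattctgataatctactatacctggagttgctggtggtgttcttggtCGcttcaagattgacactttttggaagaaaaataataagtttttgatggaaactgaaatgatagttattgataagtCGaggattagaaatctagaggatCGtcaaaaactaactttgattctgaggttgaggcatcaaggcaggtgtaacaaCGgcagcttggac
AT5G27970: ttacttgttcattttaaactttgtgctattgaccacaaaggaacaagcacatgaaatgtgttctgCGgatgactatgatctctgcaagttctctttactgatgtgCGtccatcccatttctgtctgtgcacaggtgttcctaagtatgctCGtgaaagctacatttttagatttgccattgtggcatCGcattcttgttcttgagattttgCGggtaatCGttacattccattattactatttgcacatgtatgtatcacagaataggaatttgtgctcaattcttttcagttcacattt
The GSL10 window lay at chr3:2273801-2274100 and held 9 CG sites, with 82 nt of coding sequence and 218 nt of intron. The TPR3 window lay at chr5:9513601-9513900 with 8 CG sites, and the AT5G27970 window at chr5:10007201-10007500 with 6.

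Windows whose values carry the tissue and strain comparisons below follow. That of AT1G54460, a gene of the TPX2 family, came first by the naming rule among windows lower in hybrid endosperm that lie in 1 protein-coding gene and outside UTRs. Those of ATRX and INO80, both chromatin remodelling ATPases, were chosen after their values were seen, as was that of PARP2, a poly(ADP-ribose) polymerase, which differed most between Ler and Cvi endosperm.
AT1G54460: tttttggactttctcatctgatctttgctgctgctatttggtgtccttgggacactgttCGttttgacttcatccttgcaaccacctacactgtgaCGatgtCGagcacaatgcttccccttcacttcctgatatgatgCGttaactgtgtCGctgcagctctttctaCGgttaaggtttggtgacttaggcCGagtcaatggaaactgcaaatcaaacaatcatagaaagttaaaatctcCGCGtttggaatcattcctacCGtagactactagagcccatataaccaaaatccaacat
ATRX: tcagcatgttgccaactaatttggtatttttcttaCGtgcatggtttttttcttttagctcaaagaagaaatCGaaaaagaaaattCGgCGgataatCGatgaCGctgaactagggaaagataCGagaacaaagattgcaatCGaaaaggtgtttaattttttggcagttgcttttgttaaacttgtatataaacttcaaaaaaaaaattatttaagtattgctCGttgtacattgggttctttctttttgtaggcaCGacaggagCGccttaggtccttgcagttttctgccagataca
INO80: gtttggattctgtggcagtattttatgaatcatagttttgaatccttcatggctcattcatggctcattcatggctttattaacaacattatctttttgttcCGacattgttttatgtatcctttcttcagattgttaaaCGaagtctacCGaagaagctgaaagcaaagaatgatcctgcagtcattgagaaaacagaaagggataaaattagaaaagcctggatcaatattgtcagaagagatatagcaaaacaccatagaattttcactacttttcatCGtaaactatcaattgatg
PARP2: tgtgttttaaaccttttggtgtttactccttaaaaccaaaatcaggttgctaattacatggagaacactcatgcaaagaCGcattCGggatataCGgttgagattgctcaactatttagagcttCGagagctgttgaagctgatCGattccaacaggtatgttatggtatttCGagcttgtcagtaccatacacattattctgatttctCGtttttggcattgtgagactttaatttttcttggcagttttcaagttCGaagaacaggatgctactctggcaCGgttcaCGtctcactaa
They lay at chr1:20341001-20341300 (AT1G54460, 10 CG sites), chr1:2728601-2728900 (ATRX, 11), chr3:21201001-21201300 (INO80, 4) and chr4:1052801-1053100 (PARP2, 10). Each of them spanned coding sequence and intron.

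The values that chose the windows are given as a description only. In the Col x Col embryo the 1187 windows had a mean of 82.9% CG methylation (median 83.9%, quartiles 73.9% and 92.9%). The Ler x Ler embryo was close to it, at 82.5% (median 83.7%), and the Cvi x Cvi embryo was at 77.6% (median 75%, quartiles 66.7% and 88.2%). Mean CHG methylation was 0.514%, 0.541% and 0.601% in Col, Ler and Cvi, and mean CHH methylation 0.412%, 0.336% and 0.328%. In the Col embryo 706 of the windows had no methylated CHG call at all. A window held a median of 76 CG calls in Col, 74 in Ler and 25 in Cvi, so the Cvi values are the least precise of the 3.

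At the thresholds, 349 windows had a lowest strain value between 60% and 65%, and 346 windows that met the CHG and CHH limits lay just outside, between 55% and 60%. The highest lowest-strain value outside was 59.8%. The highest CHG value inside was 9.68% and the lowest outside was 10%, and for CHH these were 2.99% and 3.11%. Of 14413 windows with 60% or more CG methylation in each strain, 8.24% were CG-only. Among the remaining 13226, called other CG-methylated windows below, 13073 exceeded both the CHG and the CHH limit, 86 the CHG limit alone and 67 the CHH limit alone. Few of these windows thus exceeded the CHG limit alone or the CHH limit alone. A limit counted as exceeded where any strain exceeded it, so a window over both was not always methylated in the 3 contexts in each strain. Of the 13226, CHG methylation was under 20% in 674 in the Col embryo, 870 in the Ler embryo and 703 in the Cvi embryo.

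The Cvi embryo set the size of the class. The rule was met by 7247 windows in the Col embryo, 7523 in the Ler embryo and 2448 in the Cvi embryo. Col and Ler met it together in 4335 windows, of which 27.4% met it in Cvi as well. Over these 4335 windows Cvi embryo methylation had a median of 32.3%, and in 1760 of them it was under 20%. The CG-only windows described here are therefore those in which the Cvi embryo also measured high, and a regression of these high Cvi values in other libraries cannot be told apart from a difference between libraries where the Cvi embryo is one side of the comparison.

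CG-only windows lay almost wholly inside genes. Of the 1187 windows, 1167 overlapped a protein-coding gene (98.3%, Wilson 95% interval 97.4 to 98.9), against 9.05% of other CG-methylated windows and 62.4% of all windows with the call minimums. Only 6 overlapped a pseudogene, 3 a non-coding RNA gene and 11 no annotated gene. Other CG-methylated windows lay mostly outside genes (52.1%) or in pseudogenes (37.2%), a class that in this annotation includes transposon-derived genes. By chromosome, 316, 178, 243, 169 and 281 windows fell on Chr1 to Chr5, which was 0.940% to 1.10% of the windows with the call minimums on each. Their median distance from the centromere was 8.03 Mb, against 1.51 Mb for other CG-methylated windows and 7.64 Mb for all windows.

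Within genes the windows avoided both ends. With each gene divided into 10 equal parts, window midpoints lay in the middle 4 parts in 68.4% of cases, against 36.2% for all windows with the call minimums. The first of the 10 parts held 2 of 1166 midpoints (0.172%) and the last 9 (0.772%), where all windows had 12.5% and 10.3%. Within 500 nt of the gene start there were 0.172% of the CG-only midpoints, against 24.8% of those of all windows. Within 500 nt of the gene end the shares were 1.63% and 20.1%. The median midpoint stood 2602 nt from the start and 2359.5 nt from the end of its gene.

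**Figure D1:**
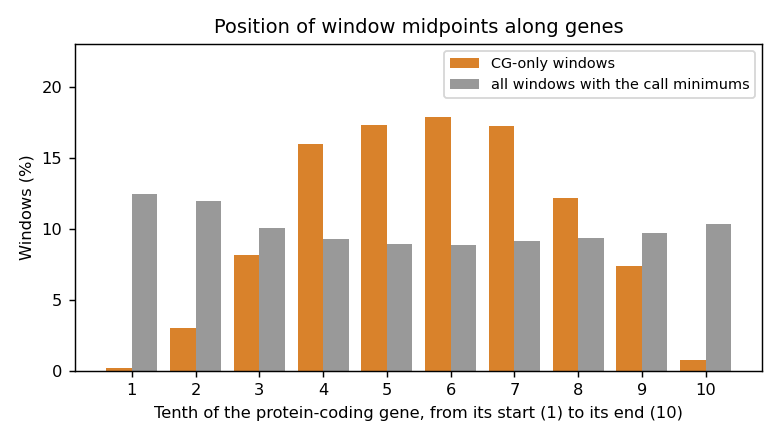
Share of window midpoints (%, vertical axis) in each of 10 equal parts of a protein-coding gene from its start to its end (horizontal axis), for CG-only windows (orange) and for all windows with the call minimums (grey). The orange bars peak in part 6 at 17.8% and nearly vanish at both ends, while the grey bars stay between 8.83% and 12.5%.

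Of the protein-coding gene bases under CG-only windows, 62.8% were coding sequence, 36.4% intron and 0.862% UTR. Over all windows with the call minimums these shares were 49.2%, 28.3% and 22.5%. UTR sequence was touched by 35 CG-only windows (2.95%), against 26.7% of all windows. Coding sequence filled 244 CG-only windows completely and intron filled 21. CG-only windows held a mean of 7.35 CG sites, close to the 7.59 of all windows, but their GC content was 39.7% against 35.4%, and CHG sites were more frequent (11.2 against 7.81 per window). A high number of CG sites was thus not a feature of the class.

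The genes were long. CG-only windows lay wholly inside 840 of the 19150 protein-coding genes that held any window with the call minimums (4.39%). The median gene length was 4921 nt for these 840 and 2392 nt for the others. Among the genes of up to 1743 nt, 5 of 4792 genes held a CG-only window. Among those above 3405 nt, 657 of 4788 did so (13.7%). A long gene holds more windows that can qualify. Counted per window, the gene at the midpoint had a median length of 5338.5 nt over CG-only windows and 2944 nt over all windows with the call minimums. Most genes (599) held 1 CG-only window, 180 held 2, 38 held 3, 20 held 4 and 3 held 5. The windows formed 1019 runs, of which 859 were single windows, and the longest run had 4.

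Beyond the 3 leading genes, those with 4 CG-only windows named by the rule were ACC1 (acetyl-CoA carboxylase, which makes malonyl-CoA for fatty acid elongation), AT1G67120 (a midasin-like protein), SWEETIE (a HEAT repeat protein), UPL2 (a ubiquitin ligase), TAF2 (a subunit of the general transcription factor TFIID), AT1G77310 (annotated as wound-responsive) and EMB2763 (a ribonuclease II family protein). The 10 genes were 4934 nt (AT1G77310) to 26211 nt (AT1G67120) long and had 14 to 75 exons. In TPR3 the 5 windows lay close together, between 1615 and 2815 nt from the gene start by their midpoints. In GSL10 they were spread from 4166 to 12766 nt over a gene of 15055 nt.

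Gene lists were counted against the 4.39% of all genes that held a CG-only window. Among genes of DNA methylation and demethylation, 4 of 17 held one: IBM1, NRPD1 (the largest subunit of RNA polymerase IV), RDR2 and DCL3, the last 3 of the small RNA pathway. MET1, CMT3, CMT2, DME and ROS1 held none, and neither did NRPE1, AGO4 and DRM2 of the small RNA pathway. Chromatin remodelling and Polycomb genes held one in 9 of 19 cases: the remodelling ATPases BRM, SYD, PKL, PIE1 and INO80, the histone methyltransferases CLF and SDG8, the histone demethylase ELF6 and the histone-binding protein MSI1. In transcription and RNA processing 6 of 10 did: NRPB1 (the largest subunit of RNA polymerase II), the elongation factors SPT6L and SPT16, the splicing factor PRP8, the microRNA processing enzyme DCL1 and the exoribonuclease XRN4. DNA replication genes followed with 2 of 6, POLA and MCM2. None of the 4 seed storage genes measured held one, and of 3 candidates for allele-specific imprinting AT3G14205 did. The median gene on the methylation, remodelling, transcription and replication lists was 4748 to 7001 nt long, above the 2392 nt given above, and the part of length in these shares was not tested.

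Families named by their annotated product were counted beside the same 4.39% of all genes. A CG-only window was held by 22 of 107 helicase genes, 4 of 26 kinesin genes and 1 of 14 importin or exportin genes. It was held by 1 of 201 ribosomal protein genes, 2 of 366 F-box genes, none of 30 defensin genes and none of 74 MADS or AGAMOUS-like genes. The helicase and kinesin genes had median lengths of 4797 and 5330.5 nt, the ribosomal protein and F-box genes of 1734 and 1551 nt. Those of the importin or exportin, defensin and MADS or AGAMOUS-like genes were 3867.5, 676.5 and 2583.5 nt. Over all genes the share was 0.104% up to 1743 nt and 13.7% above 3405 nt. The part of length in the family counts was not tested.

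The surroundings of the windows are given as a description, since the rule required a high CG value at the window itself in the selfed embryos, which favours a peak there. In the Ler x Ler embryo mean CG methylation was 82.5% at the CG-only window, 53.1% in windows 400 nt upstream in the direction of the gene and 55.5% 400 nt downstream. At 2000 nt upstream and downstream it was 26.9% and 34.0%. In the Cvi x Cvi embryo it was 77.7% at the window, 25.6% at 400 nt upstream and 28.3% at 400 nt downstream, over 253 and 301 flanking windows with 15 calls, against 1073 and 1079 in Ler. Windows at 200 nt share 100 nt with the CG-only window and are not independent of it. Mean CHG methylation in the Ler embryo was 0.41% at 400 nt upstream and 1.63% at 2000 nt upstream.

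**Figure D2:**
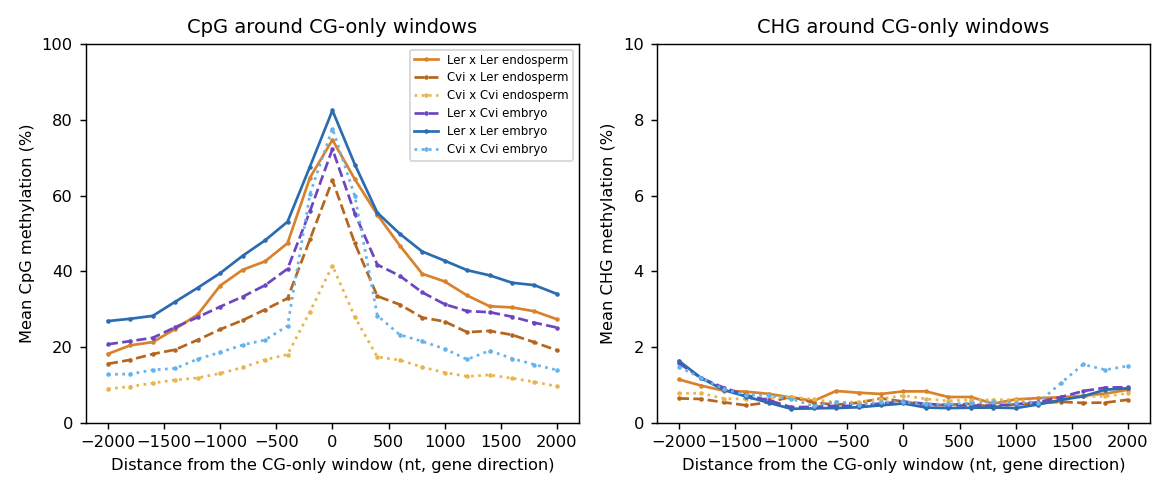
Mean methylation (%, vertical axes; CpG on the left, CHG on the right with an axis ending at 10%) by distance from CG-only windows (nt, horizontal axes) lying in 1 protein-coding gene, in the direction of that gene, for 3 endosperms and 3 embryos. CpG methylation peaked at 82.5% in the Ler x Ler embryo and at 41.5% in the Cvi x Cvi endosperm, and CHG methylation stayed under 2% throughout.

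To ask whether the class held in libraries that had no part in choosing it, levels were first measured in the hybrid embryos. In the Col x Cvi embryo all 1187 windows had 15 or more CG calls, with a mean of 72.4% (median 73.1%, quartiles 64.3% and 81.3%). The Ler x Cvi embryo was at 72.3% (median 72.6%) over 1187 windows, and the Cvi x Col embryo at 74.3% (median 76.1%) over 949. The ranges of the chromosome means were 71.1% to 73.4%, 71.5% to 72.9% and 72.7% to 76.0%. Other CG-methylated windows stood higher, at 91.1%, 90.1% and 91.3% in the same 3 embryos.

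The non-CG limits also held. Of the windows with the call minimums in the 3 contexts, 1181 of 1187 in the Col x Cvi embryo, 1184 of 1187 in the Ler x Cvi embryo and 878 of 893 in the Cvi x Col embryo stayed under both the CHG and the CHH limit. The whole rule, with CG at 60% or more, was met by 84.2%, 83.6% and 81.6% of them. Mean CHG methylation over CG-only windows was 0.577%, 0.602% and 0.662% in these embryos. For comparison, 83.9%, 84.2% and 82.4% of all windows stayed under both non-CG limits, and 2.57%, 2.63% and 2.52% met the whole rule.

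Each of these 3 hybrid embryos lay under the mean of its parents. Col x Cvi was at 72.4%, against a parental mean of 80.3%, and under the parental mean in 74.1% of windows, Ler x Cvi was at 72.3% against 80.05% and under it in 74.9%, and Cvi x Col was at 74.3% against 80.3% and under it in 63.8%. In 51.1%, 51.4% and 43.3% of windows the hybrid was under both parents. The parental values chose the windows and are high for that reason, so these differences are a description and were not tested.

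The Cvi x Ler embryo stood apart. Its mean over CG-only windows was 45.5% (median 45.5%, quartiles 22.8% and 68.2%, 747 windows). Across windows with the call minimums its CG methylation had a correlation of 0.778 with the mean of its parents, where the other 3 hybrid embryos had 0.968 to 0.980. In 76.4% of 284 blocks of 400 kb its profile matched the parental one with a correlation above 0.3 at an offset of more than 2 kb, against 15.5% to 16.0% of blocks in the other 3. Many of its calls are thus displaced along the chromosomes, and results that rest on it are marked as such. The endosperm libraries, that of Cvi x Ler among them, were not checked for displacement. At CG-only windows the CHG mean of the Cvi x Ler embryo, 1.71%, was the highest of the embryos.

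Reciprocal hybrids were compared to ask whether the direction of the cross mattered. Between the embryos of Col x Cvi and its reciprocal, Cvi x Col, 14 of 949 CG-only windows were called higher in Col x Cvi (1.48%), where 0.309% of all windows tested were, and 6 were called lower (0.632%), where 0.263% were. A call required a Benjamini-Hochberg adjusted p under 0.01 by Fisher's exact test over all windows and a difference of 35 points. Over the shared windows the Col x Cvi embryo averaged 73.0% and the Cvi x Col embryo 74.3%. Between the Ler x Cvi and Cvi x Ler embryos 274 of 747 windows were called higher in Ler x Cvi (background 6.56%) and 2 lower (background 6.3%), and these calls rest on the library with displaced positions.

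Endosperm libraries had the following levels, each over its own set of windows with 15 calls. The Ler x Ler endosperm had a mean of 73.9% over 508 CG-only windows (median 78.3%, quartiles 62.5% and 90.0%). The Cvi x Cvi endosperm had 41.3% over 1086 windows (median 41.7%, quartiles 29.0% and 54.2%). The Cvi x Ler endosperm had 63.7% over 887 windows (median 66.7%, quartiles 50.0% and 80.8%). The shallow endosperms gave few windows: 40 in Col x Cvi with a mean of 56.6%, 43 in its reciprocal with 63.7%, 11 in Ler x Cvi with 47.2% and 1 in Col x Col with 30%. In the Ler endosperm 402 of 508 windows were still at 60% or more and 9 were under 20%. In the Cvi endosperm 172 of 1086 were at 60% or more and 140 were under 20%.

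**Figure D3:**
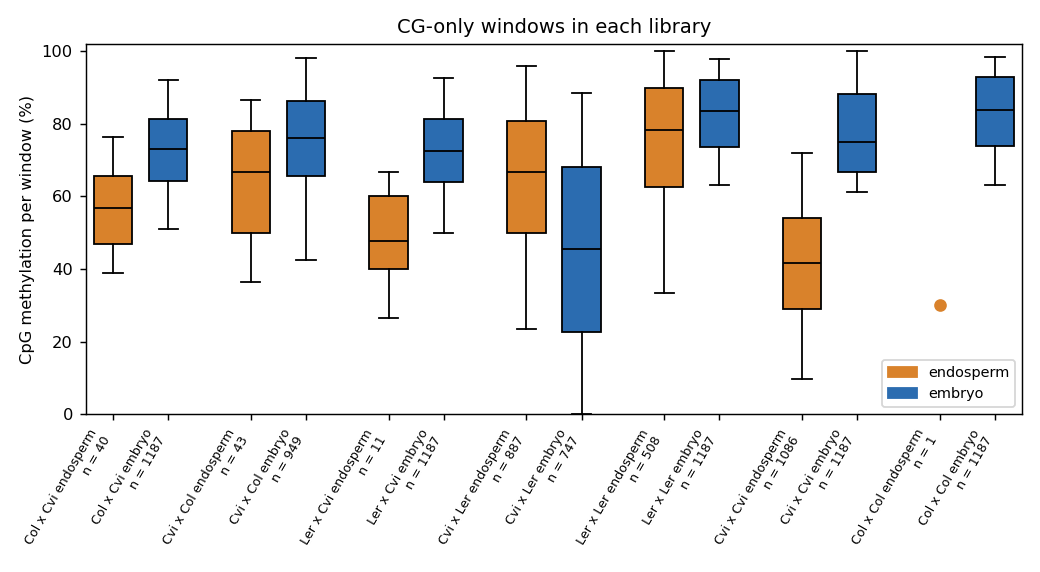
CpG methylation per CG-only window (%, vertical axis) in each library with 15 or more calls (boxes span the quartiles, lines are medians, whiskers leave out 5% at either end; the Col x Col endosperm has 1 window, drawn as a point), endosperm in orange and embryo in blue. The Ler x Ler endosperm (median 78.3%) stayed near its embryo (83.7%), the Cvi x Cvi endosperm (41.7%) did not, and the selfed embryos at 60% or more are so by the rule.

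The CHG and CHH contexts stayed low in endosperm. Mean CHG methylation over CG-only windows was 0.852% in the Ler endosperm, 0.721% in the Cvi endosperm and 0.554% in the Cvi x Ler endosperm, and mean CHH methylation 0.407%, 0.389% and 0.342%. Both non-CG limits were met by 403 of 409, 1042 of 1063 and 819 of 831 windows with the call minimums in the 3 contexts. Over all windows these limits were met by 86.3%, 86.7% and 86.5%. The whole rule was met by 77.8% of CG-only windows in Ler, 60.5% in Cvi x Ler and 15.5% in Cvi endosperm. Over all windows it was met by 4.34%, 2.34% and 0.349%. The low share of CG-only windows in Cvi came with CG values under 60%, since 98.0% of them met the non-CG limits there.

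The selfed endosperms of Ler and Cvi were compared by Fisher's exact test, since the rule used neither. It did use the embryos of both strains, at a median of 74 CG calls in Ler and 25 in Cvi. The part of this choice in the endosperm difference was not tested. Of 487 CG-only windows tested, 179 were called higher in Ler (36.8%, Wilson 95% interval 32.6 to 41.1), where 7.51% of all 190027 windows were. None was called lower, where 0.517% of all windows were, and 1 had an adjusted p under 0.01 in that direction at any size. The median difference, Ler minus Cvi, was 33.5 points over CG-only windows and 0 over all windows tested. Other CG-methylated windows had a median difference of 11.3 points, with 376 of 7878 called higher (4.77%). Over 389 CG-only windows with 15 calls in the 3 deep endosperms, Ler x Ler was at 74.5%, Cvi x Ler at 64.0% and Cvi x Cvi at 42.5%. Over 7035 other CG-methylated windows the same libraries were at 65.3%, 66.3% and 54.1%.

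**Figure D4:**
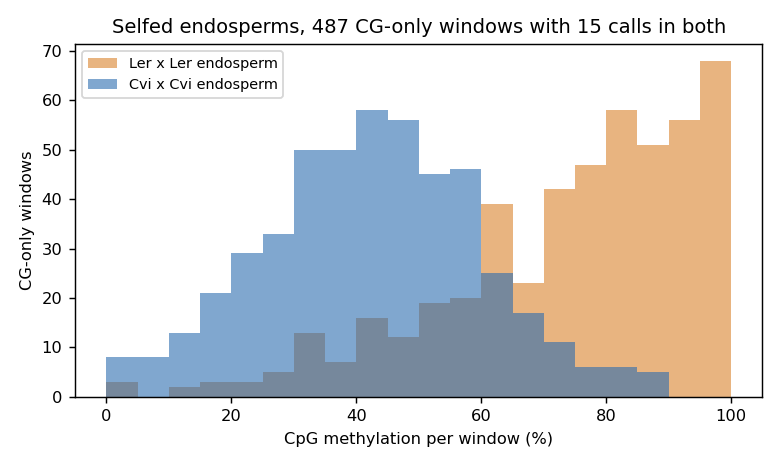
Number of CG-only windows (vertical axis) by CpG methylation (%, horizontal axis, in steps of 5 points) in the Ler x Ler endosperm (orange) and the Cvi x Cvi endosperm (blue), over the 487 windows with 15 calls in both. The Ler values crowd toward 100% and the Cvi values spread around their middle, with a median difference of 33.5 points between them.

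Of the 179 windows, 175 lay wholly inside 157 protein-coding genes, 2 overlapped a pseudogene, 1 a long non-coding RNA gene and 1 no annotated gene. In PARP2 the printed window had 38 of 38 calls methylated in Ler endosperm and 0 of 33 in Cvi endosperm (adjusted p = 2.06e-18 by Fisher's exact test), where a count of 0 allows up to 9.09%. The same window had 59.6% in Cvi x Ler endosperm, 65.7% in the Ler x Cvi embryo and 62.1% in the Col x Cvi embryo, and its Cvi x Cvi embryo value of 80% rests on 15 calls (Wilson 95% interval 54.8 to 93.0). In TPR3 each of 3 windows tested was called, and the printed window stood at 81.8% in Ler against 26.3% in Cvi endosperm (adjusted p = 0.000157 by the same exact test). In GSL10 the printed window was called, at 97.0% in Ler against 55.7% in Cvi (adjusted p = 8.48e-05, Fisher's exact test), and 2 others were not, at 80% against 54.2% and 55.6% against 44.2%.

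**Figure D5:**
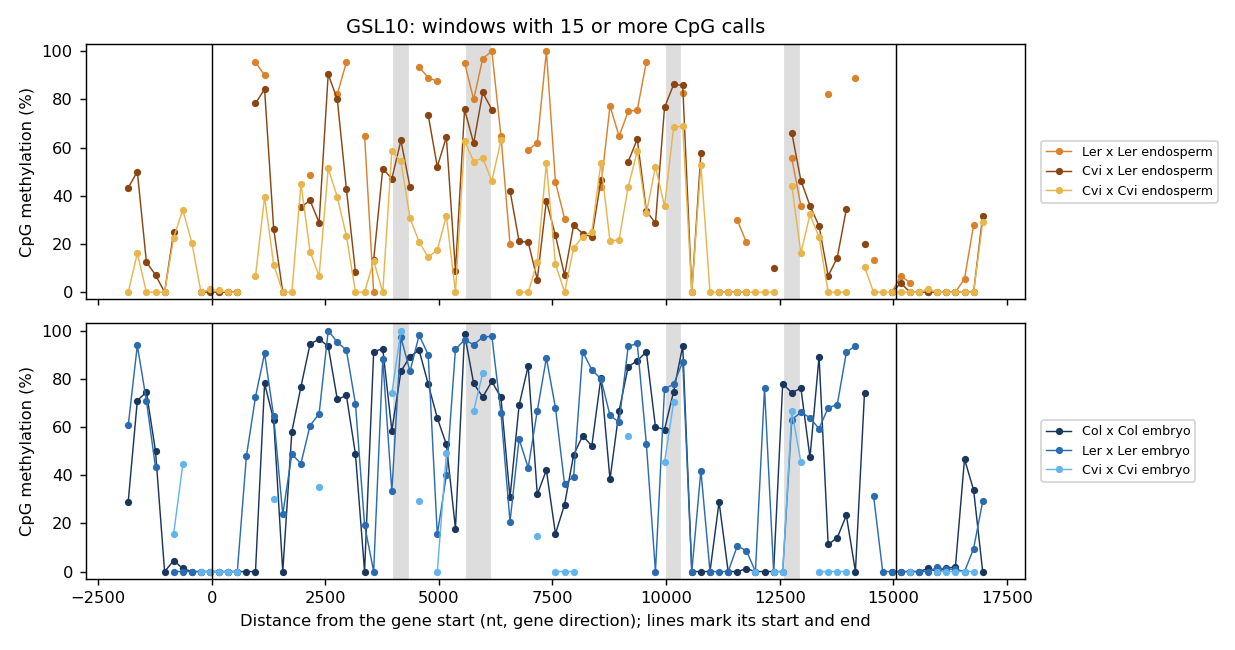
CpG methylation (%, vertical axes) by distance from the start of GSL10 (nt, horizontal axis) in windows with 15 or more calls, with 3 endosperms above and the 3 selfed embryos below; grey bands cover the 5 CG-only windows (2 of them adjoin) and vertical lines mark the ends of the gene. In the CG-only windows the Cvi x Cvi endosperm averaged 55.4%, against 77.5% in the 3 of them measured in the Ler x Ler endosperm.

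Among the 10 leading genes, 9 of 18 windows tested were called higher in Ler endosperm, beside 36.8% of all CG-only windows and 7.51% of all windows. In AT1G77310 a window had 94.1% in Ler and 5% in Cvi endosperm (adjusted p = 7.08e-17, Fisher's exact test), in ACC1 96.3% and 29.7% (8.77e-09) and in TAF2 75% and 15.4% (2.58e-07). The other ACC1 window tested had 29.4% in Ler and 33.3% in Cvi, and the other TAF2 window 74.1% and 40%. Neither was called. The 3 windows of AT1G67120 were not called, at 68.1% to 85.2% in Ler and 53.97% to 80.3% in Cvi. Summed over its 4 windows this gene had 77.5% in Ler, 65.7% in Cvi x Ler and 63.3% in Cvi endosperm, and AT1G77310 had 94.5%, 68.2% and 22.3%. These sums include windows with fewer than 15 calls. In Ler endosperm 3 of the 4 AT1G67120 windows and 2 of the 4 AT1G77310 windows had 15 calls. In Cvi endosperm 2 of the 4 AT1G77310 windows did.

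On the gene lists 8 of 17 windows tested were called higher in Ler endosperm, in 7 of 11 genes, beside the same 36.8% and 7.51%, and neither count was tested against the whole class. XRN4 had 86.4% in Ler and 0 of 25 calls in Cvi (which allows up to 12%), CLF 84.0% and 6.67%, and a window of DCL1 83.0% and 16.3% (adjusted p = 9.50e-09, 1.83e-10 and 8.23e-09 by Fisher's exact test). SYD, DCL3, NRPB1 and SDG8 each held 1 called window, at 100% against 50.9%, 84.2% against 38.5%, 78.8% against 35.5% and 100% against 62.5%. Neighbouring windows could differ. In NRPB1 the window starting 200 nt on had 76.9% in Ler and 75.8% in Cvi. PIE1, PKL, SPT6L and POLA held no called window.

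The selfed tissue comparison uses embryos that chose the windows and is a description. In Ler the endosperm was called lower than the embryo in 37 of 508 CG-only windows (7.28%, background 5.8%), and in 2575 of 8216 other CG-methylated windows (31.3%). In Cvi it was called lower in 424 of 1086 CG-only windows (39.0%, background 7.57%) and in 37.7% of the others. None was called higher in Ler (background 0.25%) or in Cvi (background 0.0905%). The mean endosperm minus embryo difference was -8.31 points in Ler and -36.4 in Cvi over CG-only windows, and -25.4 and -33.2 over other CG-methylated windows. In Cvi the endosperm mean was 39.9% to 43.1% in each of 4 classes of CG-only windows by Cvi embryo depth, from 15 to 18 calls up to 35 to 93 calls.

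Windows that met the rule in Col and Ler were described by classes of their Cvi embryo value. Since that value formed the classes, part of any gap between Cvi embryo and Cvi endosperm can follow from the choice, toward higher endosperm values in the low class and lower ones in the high class. Where the Cvi embryo was under 20%, the Cvi endosperm averaged 6.84% and the Cvi embryo 2.02%. Where the Cvi embryo was at 80% or more, the Cvi endosperm averaged 46.5% and the Cvi embryo 91.4%, over 460 and 501 windows. The Ler endosperm was at 68.1% and 74.0% in these classes, and the Ler x Cvi embryo at 44.0% and 76.8%. Over the 3148 of these windows that were not CG-only in Cvi, the Cvi endosperm averaged 16.2%, the Cvi x Ler endosperm 38.6% and the Ler endosperm 69.3%.

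Hybrid endosperm was tested against the embryo of the same cross. In Col x Cvi 4 of 40 CG-only windows were called lower (10%, Wilson 95% interval 3.96 to 23.1), where 10.8% of all windows tested and 41.9% of other CG-methylated windows were. In Cvi x Col 1 of 39 was called lower, where 7.97% of all windows and 24.9% of the others were, and in Ler x Cvi 2 of 11, where 15.1% and 32.4% were. The mean levels were 56.6% in endosperm against 73.3% in embryo for the 40 windows of Col x Cvi, 63.2% and 72.2% over the 39 of Cvi x Col, and 47.2% and 74.6% over the 11 of Ler x Cvi. The endosperm was the lower one in 34 of 40, 30 of 39 and 11 of 11 windows. Among other CG-methylated windows it was the lower one in 1084 of 1142, 1337 of 1436 and 1081 of 1116. Other CG-methylated windows had 57.3% and 89.7%, 64.6% and 89.7%, and 59.5% and 88.6% in the same crosses. None was called higher in Col x Cvi (background 0.212%) or Ler x Cvi (background 0.247%), and 1 was in Cvi x Col (background 0.131%).

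The called windows of these 3 crosses were few. The ATRX window had 5 of 29 calls methylated in Ler x Cvi endosperm (17.2%, Wilson 95% interval 7.6 to 34.5) against 199 of 275 in its embryo (72.4%, adjusted p = 1.09e-07 by Fisher's exact test). In the other endosperms it stood at 71.2% in Cvi x Ler, 48.5% in selfed Ler and 32.5% in selfed Cvi. The INO80 window had 8 of 22 calls in Cvi x Col endosperm (36.4%) against 38 of 41 in its embryo (92.7%, adjusted p = 6.42e-05, Fisher's exact test), and 24.3% in the Cvi x Cvi endosperm. MUG1, a transposase-derived gene annotated as a pseudogene, had 0 of 15 calls in Col x Cvi endosperm, which allows up to 20%, against 64.7% of 173 in its embryo (adjusted p = 7.71e-06, Fisher's exact test).

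Outside the naming rule, and named after their values were seen, were ADA2A, a transcriptional adaptor, with 52.6% against 94.0% in Ler x Cvi, and 3 windows of Col x Cvi. These were CSLC6, a cellulose synthase-like protein, with 40.0% against 90.6%, AT1G67120 with 46.7% against 85.5%, and AT1G58230 with 58.8% against 94.3%, endosperm before embryo. They rest on 15 to 19 endosperm calls each. The window called higher, in AT4G38050 (a xanthine/uracil permease family gene), had 72.7% of 22 calls in Cvi x Col endosperm and 17.2% of 29 in its embryo, against 70.7% and 67.2% in the selfed Col and Cvi embryos.

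In Cvi x Ler the test drew on the embryo with displaced calls. It called 22 of 581 CG-only windows lower (background 7.69%) and 143 higher (background 2.76%). The first named among the lower ones were AT3G29270, whose window lay in UTR sequence, and AT1G54460, with 0 of 20 calls in endosperm (which allows up to 15%) and 31 of 47 in embryo (adjusted p = 4.68e-06, Fisher's exact test). The Ler x Cvi embryo had 43.9% and the Cvi x Cvi endosperm 16.7% in the AT1G54460 window. XIB, AAE16, ARP, CERK1, MAP70-4 and PRP40B followed at -63.2 to -55.4 points, and with MUG1 and INO80 from the other crosses they made up the 10 places named by the rule. TNO1, AT1G76630, AT3G20010, AT3G55160 and AT5G06120 led the higher ones at 96.3 to 100 points.

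With the Ler x Cvi embryo in place of the displaced one, the Cvi x Ler endosperm was called lower in 67 of 887 CG-only windows (7.55%, background 4.51%) and higher in 8 (0.902%, background 0.207%). The means were 63.7% in Cvi x Ler endosperm and 72.3% in Ler x Cvi embryo. Over 10677 other CG-methylated windows they were 68.4% and 90.1%, and 25.2% were called lower. This comparison sets an endosperm against the embryo of the reciprocal cross. Between the Ler x Cvi and Cvi x Ler endosperms 1 of 10 CG-only windows was called lower in Ler x Cvi (background 3.37%) and none higher (background 0.529%).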

How the data were processed

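The windows, gene lists and tests were chosen with earlier results of these data known. Reads were mapped with Bismark by the authors to TAIR10 (Col and Cvi, with Cvi substitutions for unmapped reads) or to a Ler genome with positions moved to TAIR10, and hybrid reads to a parental and then to the Cvi-substituted genome. Tool versions are not given in the sources used here. Redundant reads were removed, a cytosine needed 5 reads, and windows were 300 nt wide and began every 200 nt. Neighbouring windows share 100 nt, so a call can count in more than 1 window. The weighted files, as deposited by the authors, hold counts of unmethylated and methylated calls per window, and the window mean files hold an unweighted percent, as deposited. From these, window percentages were computed and averaged over windows with 15 CG or CHG calls, or 50 CHH calls. Nuclear CG calls ranged from 214040 to 62566453 per library.

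Gene position and sequence came from TAIR10.1 with RefSeq annotation, whose chromosome lengths fit the window positions. A window overlapping several classes went to protein-coding gene, pseudogene, non-coding RNA gene or none, in that order. Two-sided Fisher's exact tests on calls of 2 libraries were adjusted by Benjamini-Hochberg over all windows tested, and called at an adjusted p under 0.01 and 35 points, after the study's methods but with a minimum of 15 calls in place of informative cytosines. Wilson intervals (95%) and the limits given beside 0 methylated calls (3 calls of the total) cover counting error only.

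The genes named were the 10 with most CG-only windows wholly inside them, genes of 6 fixed lists (66 genes) that hold one, up to 10 places called lower and up to 5 called higher in hybrid endosperm (most crosses first, then the larger mean difference). Python 3 libraries were used (numpy, scipy, pandas, numba and matplotlib). The alternatives changed the rule, the call minimum, the size of difference and the window overlap. No transposon annotation was used here.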

Additional observations from a re-analysis of the deposited data

Results flagged for a closer look

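The mean endosperm minus embryo difference over CG-only windows was 16.2 points in Cvi x Ler, where endosperm was the higher tissue, while it was -16.7 in Col x Cvi, -8.99 in its reciprocal Cvi x Col and -27.4 in Ler x Cvi. The direction of 1 cross against the other 3 drew attention, and the difference between crosses was not tested. The Cvi x Ler embryo is the library with displaced calls. Against the Ler x Cvi embryo the same endosperm differed by -8.62 points over 887 windows.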

How the results depend on the processing

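Each group holds 1 library, so no replicate block could be fitted. Paired by cross, a test added after seeing the data, the mean endosperm minus embryo difference over CG-only windows was -9.23 points over the 4 hybrid crosses (lower in 3, p = 0.375 by an exact two-sided sign-flip test, smallest possible p = 0.125). Without Cvi x Ler it was -17.7 points over 3 crosses (lower in 3, exact p = 0.25, the smallest possible). The share of CG-only windows in protein-coding genes stayed within its interval by midpoint class and with every second window. The class had 226 windows with 30 CG and CHG and 100 CHH calls, 1974 at 50% CG, 216 at 80% and 594 with every second window. Depth limits the single windows of the Col x Col endosperm and of the hybrid endosperms other than Cvi x Ler.

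Levels moved by at most a few points except in shallow libraries and where the class itself changed. With every second window they were 74.6% in Ler, 42.5% in Cvi and 64.3% in Cvi x Ler endosperm, and 73.2% in Col x Cvi and 72.7% in Ler x Cvi embryo. With no call minimum they were 71.6%, 40.5%, 61.4%, 51.0%, 57.8% and 55.4% in Ler, Cvi, Cvi x Ler, Col x Cvi, its reciprocal Cvi x Col and Ler x Cvi endosperm, 73.0% in Cvi x Col embryo and 44.5% in Cvi x Ler embryo. Window mean files gave 72.0% in Col x Cvi and 71.9% in Ler x Cvi embryo, and pooled calls gave 71.9% in Ler x Cvi embryo. Windows with the minimum in all deep libraries gave 41.9% in Cvi and 62.9% in Cvi x Ler endosperm, 72.1% in the Col x Cvi and 48.6% in the Cvi x Ler embryo.

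Chosen after seeing the data, the rule with 30 and 100 calls gave 75.8% in Ler, 42.5% in Cvi, 62.4% in Col x Cvi, 74.4% in its reciprocal and 55.9% in Ler x Cvi endosperm, and 74.9% in the Col x Cvi embryo, 77.0% in its reciprocal, 73.9% in the Ler x Cvi embryo and 46.9% in its reciprocal. The rule in Col and Ler only gave 70.5% in Ler, 23.1% in Cvi, 48.1% in Col x Cvi, 47.7% in its reciprocal and 45.7% in Cvi x Ler endosperm, and 57.6%, 57.2%, 57.04% and 37.4% in the embryos of Col x Cvi, its reciprocal, Ler x Cvi and its reciprocal.

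Tissue comparisons with 30 calls in both libraries called 0 of 5 CG-only windows lower in Col x Cvi (background 13.9%). In Cvi x Col 0 of 7 were lower (background 8.69%) and 0 higher, and in Ler x Cvi 0 of 1 was lower (background 17.9%). These counts rest on too few windows to show whether calls were lost. In Cvi x Ler 9 of 237 were lower (background 7.57%) and 59 higher (background 2.32%). With 50 points 2 of 40 were lower in Col x Cvi (background 4.94%). In Ler x Cvi 1 of 11 was (background 5.72%), and in Cvi x Ler 12 of 581 were (background 4.73%). With every second window 1 of 19 was lower in Col x Cvi (background 10.5%) and 8 of 293 in Cvi x Ler (background 7.69%). In Cvi x Col 0 of 18 were lower (background 8.04%) and in Ler x Cvi 0 of 4 (background 15.1%). In Cvi x Ler 71 were higher (24.2%, background 2.74%). The Ler x Cvi embryo in place of the Cvi x Ler embryo was added after seeing the data. It gave 67 of 887 lower (background 4.51%) and 8 higher (background 0.207%).

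In Ler against Cvi endosperm 71 of 153 windows were higher with 30 calls (46.4%, background 6.24%) and 104 of 487 with 50 points (21.4%, background 5.13%). With every second window 84 of 244 were higher (34.4%, background 7.52%). The rule of 30 and 100 calls (added) gave 41 of 118 (34.7%, background 7.51%). With 25 points 1 of 487 was lower (background 0.631%). The Col x Cvi embryo against its reciprocal gave 11 of 949 lower with 25 points (1.16%, background 0.343%). With 50 points 0 were lower (background 0.117%) and 6 higher (0.632%, background 0.128%). With every second window 1 of 471 was lower (background 0.26%) and 5 higher (1.06%, background 0.31%). With 30 calls 5 of 636 were higher (0.786%, background 0.225%). Ler x Cvi against Cvi x Ler embryo gave 1 of 399 lower (background 6.08%) and 157 higher with 30 calls (39.3%, background 6.17%). With 25 points 9 of 747 were lower (background 8.32%). With 50 points 0 were lower (background 3.91%) and 170 higher (22.8%, background 3.67%). With every second window 0 of 378 were lower (background 6.32%) and 141 higher (37.3%, background 6.57%). In endosperm that pair had 0 CG-only windows to test with 30 calls. With every second window 0 of 4 were lower there (background 3.69%). Fewer windows were tested with 30 calls and with every second window.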

Other observations

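CG-only windows outside protein-coding genes, looked at after their values were seen, lay mostly in pseudogenes or outside annotated genes. Of the 6 in pseudogenes, 5 lay in MUSTANG genes, which derive from transposases: 2 in MUG1, 2 in MUG6 and 1 in MUG2. In the windows of MUG6 the Ler x Ler endosperm had 70.0% and 100% and the Cvi x Cvi endosperm 11.5% and 10.98%, while the Cvi x Cvi embryo had 64.5% and 61.1%. The Ler x Ler endosperm values rest on 20 and 16 calls, and the 2 windows share 100 nt.

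The 11 windows outside annotated genes had lower endosperm values than the rest. Over 10 of them the Ler x Ler endosperm averaged 37.3% (range 0% to 89.5%), against 74.6% over the 498 measured in annotated genes. In the Cvi x Cvi endosperm the means were 34.0% and 41.4%, and in the Cvi x Ler endosperm 44.4% and 63.9%. In the Col x Cvi embryo they stood at 82.0%, above the 72.4% of the windows in genes. The 11 windows held 2 to 7 CG sites each, where CG-only windows had a mean of 7.35, so each value rests on few sites. These groups were not tested against each other.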
